A study of Vachellia cornigera with 24 samples.

Results

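The transcripts of 2 cell wall invertases, CWINV2 (closest Arabidopsis locus AT3G52600) and CWINV4 (AT2G36190), were followed through 24 RNA-seq libraries of extrafloral nectaries of the bullhorn acacia, labelled Acacia cornigera or Vachellia cornigera. They were chosen by locus and are 2 of the 12650 genes in the table, which names each acacia gene by an Arabidopsis locus and calls these "cell wall invertase 2" and "cell wall invertase 4". Extrafloral nectaries are sugar-secreting glands outside the flower, and this tree feeds resident ants of the species Pseudomyrmex ferrugineus from them. Each library pooled glands of several field plants. Plants without ants for 2 days (ants removed) gave 3 libraries, plants titled Gracilis replacement 3 and plants titled gut contents applied 2. Plants titled ants replaced after 2 days, here called returned ants, gave 1. Of the untreated libraries 3 are labelled 9 am and 3 noon, 1 is from 2 pm and 3 are from 3 pm, 2 come from 3 am on day 2, and 3, titled controls, from 8 am. The labels do not say what Gracilis stands for, whose gut contents were applied or which ants were placed after 2 days. They give no clock time for Gracilis replacement, gut contents or ant removal. The returned ants library is labelled 9 am.

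Cell wall invertases sit in the apoplast, the space outside the plasma membrane, and split sucrose into glucose and fructose. In floral nectaries of Arabidopsis and its relatives, sucrose leaves the cell through the transporter SWEET9 and CWINV4 cleaves it outside, which keeps a sucrose gradient towards the nectar. Arabidopsis plants without CWINV4 make little or no nectar. Ant-acacias are known for extrafloral nectar that is poor in sucrose and carries invertase activity.

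Values are normalised counts as the authors deposited them, rounded. Tests used limma on log2(value + 1) over the 12264 genes with a mean of at least 10, with p-values adjusted over all of them and a threshold of 0.05. Library sums lay between 21084300 and 32520500. Replicates scattered most at 3 pm and 9 am, with a root mean square SD over genes of 0.720 and 0.711 on the log2 scale, against 0.219 at noon and 0.421 to 0.546 in the other replicated groups. Within 2 pairs, noon samples 1 and 3 and ants removed samples 2 and 3, the median gene differed by only 0.0631 and 0.0665 on the log2 scale, while all other replicate pairs differed by 0.111 to 0.498. The table holds 3 of 6 nectary markers, and none was at 0 in any group: SWEET9 ranged from 2338 to 290122, the leaf-base and nectary regulator BOP1 from 124 to 1640 and the auxin transporter PIN6 from 10 to 978. In these bulk samples, fewer cells of a type and less RNA per cell cannot be told apart.

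Both invertase transcripts were highest at 8 am and at 3 am and several-fold lower through the day. For CWINV4, the 9 am libraries had 9260, 13012 and 24536 normalised counts, the noon libraries 17573, 15738 and 17786, the 2 pm library 10697, the 3 pm libraries 5385, 13277 and 5407, the 3 am libraries 40144 and 49443, and the 8 am libraries 69379, 99011 and 88628. Every 8 am library was above every 3 am library, and both groups were above all daytime libraries without overlap. So clear a separation was common between these groups: it was found for 27.2% of genes between 9 am and 8 am, 65.7% between noon and 8 am, 40.8% between 3 pm and 8 am, and 34.8% between 3 am and 8 am. Between 3 am and the other hours it was found for 19.7% of genes with 9 am, 69.0% with noon and 41.1% with 3 pm. For CWINV2, the 9 am libraries had 1431, 2248 and 2769 normalised counts, the noon libraries 2959, 2775 and 2946, the 2 pm library 1582, the 3 pm libraries 826, 2308 and 752, the 3 am libraries 6823 and 8300, and the 8 am libraries 11068, 16841 and 14058. Its groups stood in the same order, and within 3 pm the same library, sample 2, was the high one for both genes. The level differed between the 5 replicated times for CWINV2 (moderated F = 25.0, limma adjusted p = 4.18e-05) and for CWINV4 (F = 22.9, limma adjusted p = 6.16e-05), where 39.7% of all genes tested were called. Among those genes, CWINV2 ranked 132 and CWINV4 ranked 173 by the F test.

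**Figure D1:**
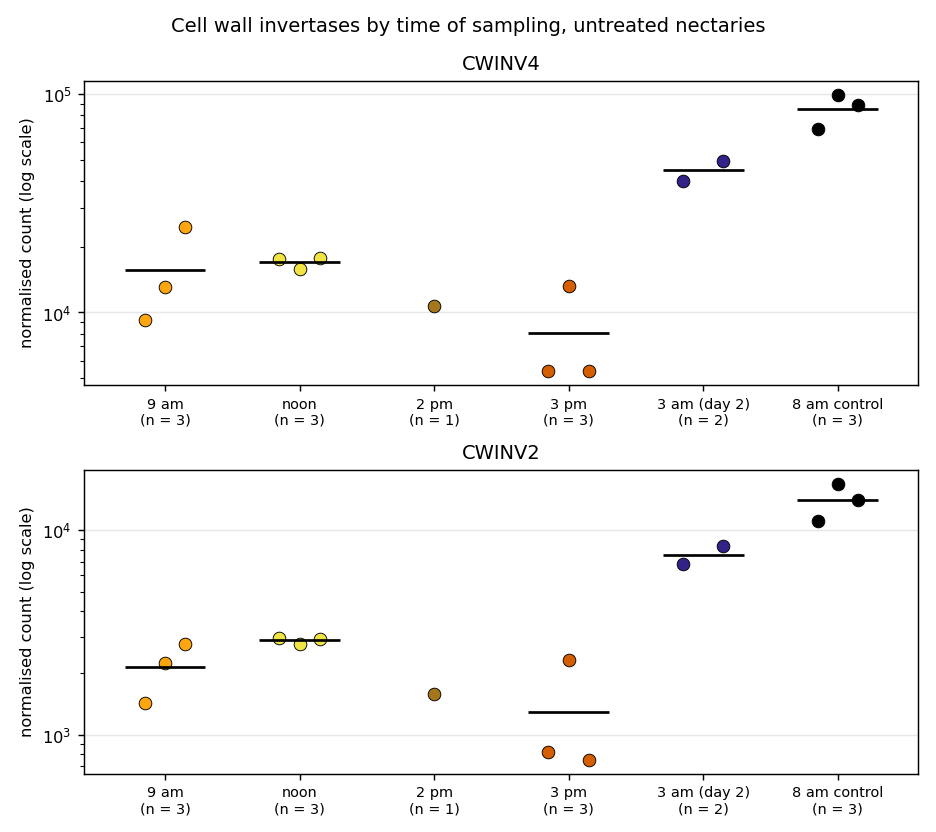
Normalised counts of both genes on a log axis at each time of sampling, with 1 point per library and the number of libraries under each time; bars mark group means. The 8 am libraries lie at 69379 to 99011 for CWINV4 and 11068 to 16841 for CWINV2, above all others, and the 3 am libraries come next.

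Both genes were far lower at 9 am than at 8 am. At 9 am CWINV2 averaged 2149 ± 674 (SD, n = 3), against 13989 ± 2887 at 8 am (SD, n = 3), and was thus lower at 9 am by a log2 fold change of -2.73 ± 0.40 (SE, limma adjusted p = 0.000510), or 6.65-fold. CWINV4 averaged 15603 ± 7961 at 9 am and 85673 ± 15035 at 8 am (SD, n = 3 each), a log2 fold change of -2.56 ± 0.41 (SE, limma adjusted p = 0.000829). Both genes passed in a comparison in which 14.2% of genes did. The 9 am libraries did not resemble each other: LHY, a clock transcription factor that peaks around dawn in Arabidopsis, had 20730, 2525 and 83100 there, and the invertases were highest in sample 3, where LHY was highest, but lowest in sample 1, where LHY was above that of sample 2. The labels do not place the 8 am and 9 am samples on a common day, so hour and day cannot be told apart. With only these 2 groups in the fit, CWINV4 no longer passed (limma adjusted p = 0.0576). With the sample number as a block in that fit it did (limma adjusted p = 0.0259).

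At noon and at 3 pm both genes were also lower than at 8 am. Noon averaged 2893 ± 103 for CWINV2 and 17032 ± 1126 for CWINV4 (SD, n = 3), with log2 fold changes against 8 am of -2.25 ± 0.40 and -2.32 ± 0.41 (SE, limma adjusted p = 0.000416 and 0.000370), where 37.4% of genes passed. The lowest untreated means, at 3 pm, were 1295 ± 878 for CWINV2 and 8023 ± 4550 for CWINV4 (SD, n = 3). Against 8 am these gave log2 fold changes of -3.61 ± 0.40 for CWINV2 and -3.54 ± 0.41 for CWINV4 (SE, limma adjusted p = 1.56e-05 and 1.85e-05), 12.2-fold and 11.6-fold lower at 3 pm, where 36.8% of genes passed. These comparisons and that of 9 am share the 8 am libraries. Between the daytime groups themselves no difference of either gene passed. Noon and 9 am differed by a log2 fold change of 0.48 (95% interval -0.36 to 1.32) for CWINV2 and 0.24 (-0.61 to 1.10) for CWINV4, where 12.4% of genes passed (limma adjusted p = 0.415 and 0.698). The 3 pm libraries lay below noon without overlap, by log2 fold changes of -1.36 ± 0.40 and -1.22 ± 0.41 (SE, limma adjusted p = 0.151 and 0.183), but no gene at all passed there (0%; 1798 genes had an unadjusted p under 0.05). Groups without overlap were found for 20.3% of genes. Without 3 pm sample 2 the same differences were -1.87 and -1.66 and passed (limma adjusted p = 0.00441 and 0.0153). Against 9 am, the 3 pm libraries overlapped and gave -0.88 and -0.98 (limma adjusted p = 0.253 and 0.218), again with 0% of genes called, and with 2255 genes at an unadjusted p under 0.05.

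The night libraries stood well above the afternoon. At 3 am CWINV2 averaged 7562 ± 1044 and CWINV4 44794 ± 6575 (SD, n = 2), higher than at 3 pm by log2 fold changes of 2.74 ± 0.45 and 2.61 ± 0.45 (SE, limma adjusted p = 0.00200 and 0.00271), 6.67-fold and 6.11-fold, where 19.6% of genes passed. In a fit of those 2 groups alone neither gene passed (adjusted p = 0.0832 and 0.0766), and only 3 genes did in all. Against noon the 3 am levels were higher by 1.38 ± 0.45 for CWINV2 and 1.39 ± 0.45 for CWINV4 on the log2 scale (SE, limma adjusted p = 0.0375 and 0.0385), where 20.3% of genes passed. Both calls were lost whichever of the 5 libraries was left out, with adjusted p up to 0.180 and 0.184. Against 9 am the log2 fold changes were 1.86 ± 0.45 and 1.63 ± 0.45 (SE, limma adjusted p = 0.153 and 0.184), without overlap between the groups but with 0% of genes called and 1610 at an unadjusted p under 0.05. Leaving out 9 am sample 3, whose CWINV4 was highest, gave 2.07 and 2.02 (limma adjusted p = 0.0185 and 0.0141). Between 3 am and 8 am, where 0.832% of genes passed, the log2 fold changes were -0.87 (95% interval -1.82 to 0.07) for CWINV2 and -0.93 (-1.88 to 0.03) for CWINV4, and neither passed (limma adjusted p = 0.475 and 0.446), although no 3 am library reached the lowest 8 am one.

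The summed level of 8 photosynthetic markers followed a similar course, with ranges of 73195 to 125492 in the 9 am libraries, 76552 to 80058 in the noon, 63096 to 78055 in the 3 pm, 129948 to 164024 in the 3 am and 124058 to 200133 in the 8 am libraries. It was also high in the 2 pm library, at 189201, where CWINV2 and CWINV4 were low. The 5 phloem markers had no such order (20574 to 46994 in the 9 am libraries, 28140 to 28893 in the noon, 19010 to 57162 in the 3 pm, 16887 to 36777 in the 3 am and 29476 to 39584 in the 8 am libraries). BOP1 and PIN6 together gave 525 to 958 in the 9 am, 1116 to 1193 in the noon, 573 to 1455 in the 3 pm, 1043 to 1157 in the 3 am and 732 to 945 in the 8 am libraries. SWEET9, the other nectary marker, had 12189 to 134932, 2338 to 2510, 3754 to 20512, 39033 to 129912 and 125151 to 206764 in that order of times. Its mean was highest at 8 am and next at 3 am, like those of the invertases. The 7 xylem markers summed to 6109 to 9041, 15562 to 17094, 4468 to 13638, 9751 to 19604 and 8406 to 19192 in that order of times. The 4 guard cell markers summed to 1230 to 1349, 2153 to 2333, 797 to 2205, 1886 to 2132 and 1463 to 2013. None of these markers was at 0 in any group, and their part in the course of the invertases was not tested.

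In all ant treatments both invertases lay far below the 8 am controls. After removal of the ants CWINV4 had 8579, 12606 and 12742 normalised counts, with Gracilis replacement 10563, 5917 and 9725, with gut contents 6973 and 19730, and with returned ants 6011, against 69379, 99011 and 88628 in the 8 am controls. CWINV2 had 1145, 1888 and 1804 without ants, 1580, 909 and 1515 with Gracilis replacement, 1049 and 2848 with gut contents, and 873 with returned ants, against 11068, 16841 and 14058 in the controls. No treated library came near a control, and the highest of them for both genes was gut contents sample 2. Groups that do not overlap with the controls were found for 53.2% of genes without ants, 54.3% with Gracilis replacement and 57.3% with gut contents.

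**Figure D2:**
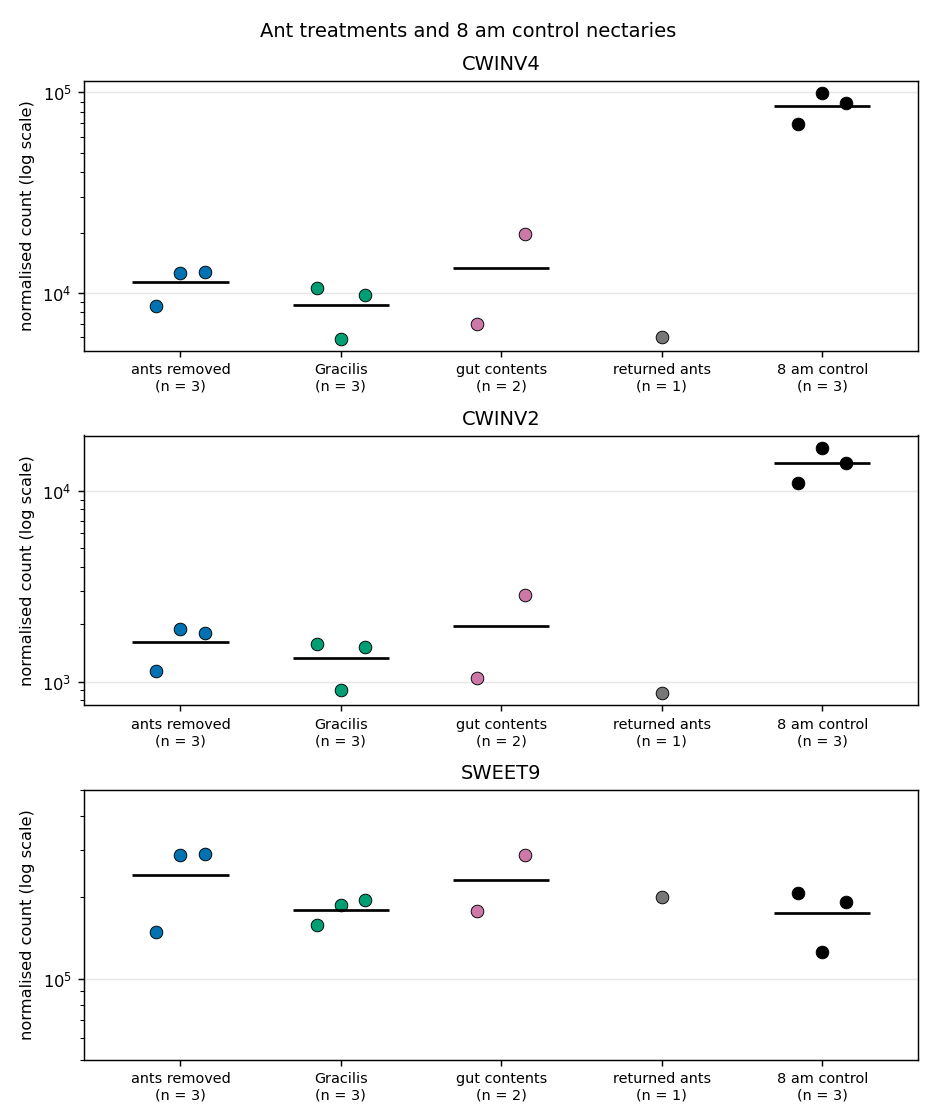
Normalised counts of CWINV4, CWINV2 and the sucrose exporter SWEET9 on a log axis in the ant treatments and the 8 am controls, with 1 point per library; bars mark group means. CWINV4 stays at 5917 to 19730 in the treated libraries and at 69379 to 99011 in the controls, while the SWEET9 ranges overlap.

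Without ants CWINV2 averaged 1612 ± 407 and CWINV4 11309 ± 2365 (SD, n = 3), lower than the 8 am controls by log2 fold changes of -3.13 ± 0.40 and -2.93 ± 0.41 (SE, limma adjusted p = 7.15e-05 and 0.000124), or 8.75-fold and 7.62-fold; 27.5% of genes passed there and 15.9% were lower. Gracilis replacement averaged 1335 ± 370 for CWINV2 and 8735 ± 2476 for CWINV4 (SD, n = 3), with log2 fold changes of -3.41 ± 0.40 and -3.32 ± 0.41 (SE, limma adjusted p = 4.19e-05 and 5.67e-05) where 16.7% of genes were lower by the test. Gut contents gave -2.99 ± 0.45 and -2.85 ± 0.45 (SE, limma adjusted p = 0.000379 and 0.000526) where 12.9% were lower, with means of 1949 ± 1272 and 13352 ± 9021 (SD, n = 2). The returned ants library has no replicate and was not tested. All 3 comparisons use the same control libraries. By size of change, CWINV2 and CWINV4 ranked 342 and 400 of the 12264 genes without ants, 242 and 263 with Gracilis replacement, and 394 and 435 with gut contents.

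The treatments did not separate from each other. Gracilis replacement and ant removal overlapped and differed by a log2 fold change of -0.28 (95% interval -1.12 to 0.56) for CWINV2 and -0.39 (-1.25 to 0.46) for CWINV4, with a limma adjusted p of 1 and 0% of genes called (76 had an unadjusted p under 0.05). Gut contents and ant removal differed by 0.14 (-0.81 to 1.08) and 0.08 (-0.88 to 1.03), with a limma adjusted p of 1 where 0.0652% of genes passed. Leaving out ants removed sample 1 or gut contents sample 2 turned the sign of the second difference. The intervals do not show the treatments to be alike.

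How the time of sampling enters these falls is limited by the labels, since treatment and hour cannot be told apart where no hour is given. Set against the 9 am libraries in place of 8 am, an added comparison chosen after seeing the data, no treatment passed: the log2 fold changes were -0.40 for CWINV2 and -0.37 for CWINV4 without ants, -0.68 and -0.76 with Gracilis replacement and -0.26 and -0.29 with gut contents (limma adjusted p between 0.172 and 0.704), where 27.5%, 27.0% and 22.3% of genes passed. LHY was 107866 to 186662 in the 9 treated libraries, 2525 to 83100 at 9 am and 97394 to 135217 at 8 am. The returned ants library, the only treated one with an hour, is labelled 9 am and had LHY at 142300. Its CWINV2 of 873 and CWINV4 of 6011 lay below the 1431 to 2769 and 9260 to 24536 of the untreated 9 am libraries. It has no replicate, and this difference was not tested. With so wide a range at 9 am, LHY does not fix an hour, and the part of the hour was not tested. SWEET9 did not pass against 8 am in any treatment. It averaged 242141 ± 80845 without ants, 180047 ± 19956 with Gracilis replacement and 232610 ± 76361 with gut contents, against 174589 ± 43459 in the controls (SD, n = 3, 3, 2 and 3). Its log2 fold changes were 0.44, 0.07 and 0.41 (limma adjusted p = 0.685, 0.949 and 0.756). With 9 am as the reference SWEET9 was higher in each treatment, by 2.91, 2.54 and 2.87 (limma adjusted p = 0.00762, 0.0157 and 0.0181). Its result thus also depended on the reference.

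Several marker sums were lower in the treated libraries too, but not that of all 3 nectary markers. With SWEET9 these summed to 148977 to 290304 without ants, 157899 to 196232 with Gracilis replacement and 178814 to 286882 with gut contents. The controls had 125883 to 207709. Apart from SWEET9, the nectary markers in the table, BOP1 and PIN6, summed to 176 to 234 without ants, 217 to 291 with Gracilis replacement and 199 to 277 with gut contents, against 732 to 945 in the controls, without overlap. The 5 phloem markers summed to 12777 to 13248 without ants, 13039 to 14002 with Gracilis replacement and 13548 to 14245 with gut contents, against 29476 to 39584 in the controls. The 8 photosynthetic markers summed to 54720 to 72686, 62532 to 72441 and 54301 to 68703 in the same order, against 124058 to 200133. The 7 xylem markers summed to 3440 to 4376, 4005 to 4752 and 3630 to 3924, against 8406 to 19192. The 4 guard cell markers summed to 1007 to 1681 without ants and 1335 to 1665 with Gracilis replacement, both overlapping the 1463 to 2013 of the controls. With gut contents they summed to 1229 to 1254, below the controls. No marker was at 0 in any of these groups, and the part of these markers and cell types in the lower invertase levels was not tested.

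Ordered by mean, both genes gave the same sequence of groups: 8 am, 3 am, noon, 9 am, gut contents, ants removed, 2 pm, Gracilis replacement, 3 pm and returned ants. The ranges of 8 am and 3 am did not overlap, nor did those of 3 am and noon. Noon and 9 am were apart for CWINV2, as for 39.1% of genes, and overlapped for CWINV4. Below 9 am, the ranges of successive groups overlapped for both genes, except that the 2 pm library lay just above the highest Gracilis library. Over all libraries CWINV2 spanned 752 to 16841 (22.4-fold, median 2068) and CWINV4 5385 to 99011 (18.4-fold, median 12877).

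**Figure D3:**
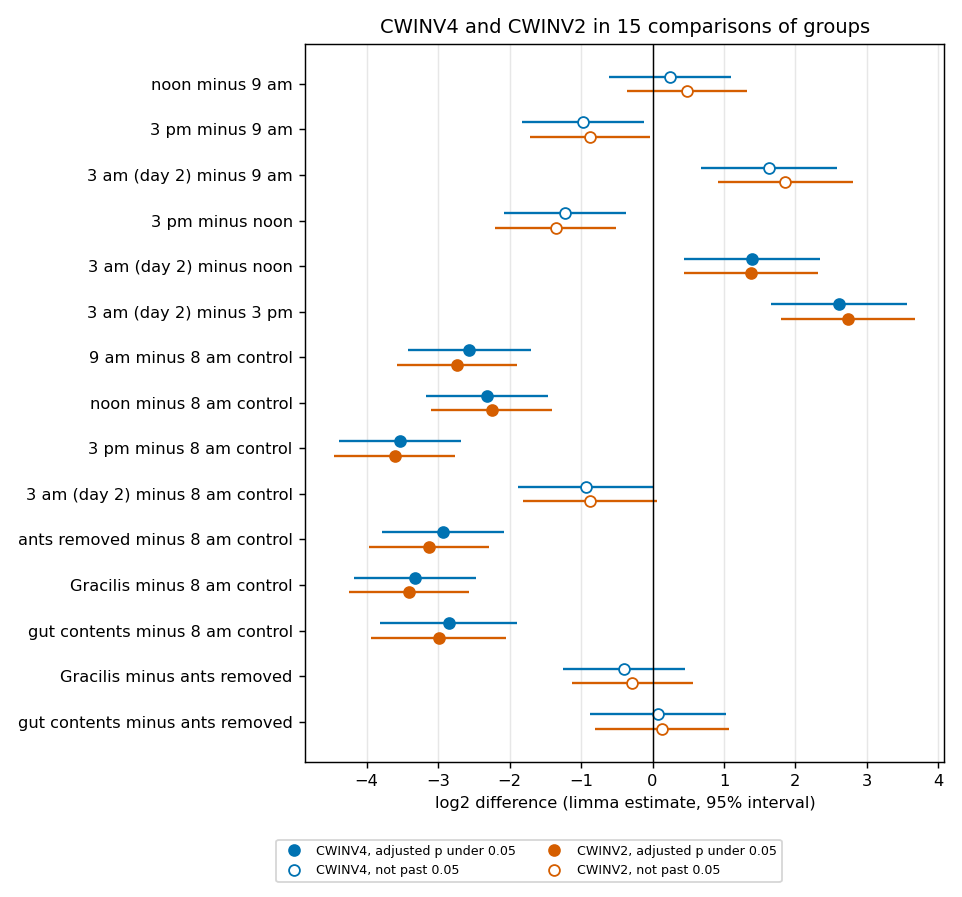
Log2 differences of CWINV4 and CWINV2 (limma estimates with 95% intervals) in 15 comparisons of groups; filled points have an adjusted p under 0.05, open points do not. The ant treatments lie at -2.85 to -3.41 against 8 am and near 0 against each other, and each pair of points is close together.

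The acacia genes kept an almost constant proportion to one another. The ratio of CWINV4 to CWINV2 normalised counts was between 5.67 (noon sample 2) and 8.86 (9 am sample 3) with a median of 6.49, a 1.56-fold span. The sources used here give neither gene lengths nor the treatment of reads that match both genes, so the ratio is not one of transcript levels, and a share of reads exchanged between the genes cannot be told apart from joint change. Over the 5 times the groups accounted for 0.290 of the variance of the log2 ratio (exact permutation test, p = 0.480, adjusted over 2 tests 0.480). Leaving out single libraries gave shares of 0.254 to 0.539 and the highest, without 9 am sample 2, had an adjusted p of 0.0950 in the exact permutation test. The means were 7.04 ± 1.61 in the 9 am libraries, 5.88 ± 0.19 in the noon, 6.49 ± 0.72 in the 3 pm, 5.92 ± 0.05 in the 3 am and 6.15 ± 0.24 in the 8 am libraries (SD, n = 3, 3, 3, 2 and 3). In the ant treatments the ratio was 7.08 ± 0.41 without ants, 6.54 ± 0.14 with Gracilis replacement and 6.79 ± 0.20 with gut contents, against 6.15 ± 0.24 in the controls (SD, n = 3, 3, 2 and 3). Here the groups accounted for 0.731 of the variance (exact permutation test, p = 0.00935, adjusted over 2 tests 0.0187). Every library without ants had a higher ratio (6.68 to 7.49) than every control (5.88 to 6.30). The same held with Gracilis replacement (6.42 to 6.69), gut contents (6.65 and 6.93) and returned ants (6.89). In all of them CWINV2 was thus lower by slightly more than CWINV4. Without 8 am sample 2, the lowest control, the adjusted p of the permutation test was 0.113.

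**Figure D4:**
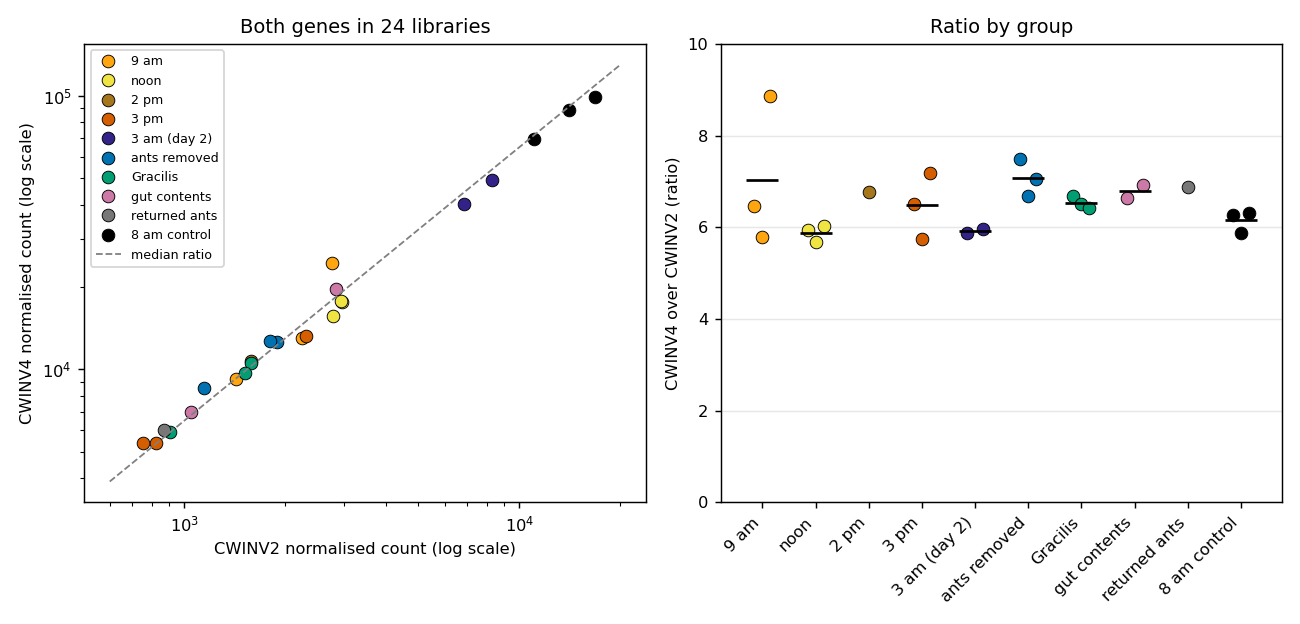
Left, CWINV4 against CWINV2 normalised counts on log axes, 1 point per library, with a dashed line at the median ratio of 6.49; right, the ratio in each library by group. The points follow the line over the 22.4-fold span of CWINV2, and 9 am sample 3, at 8.86, is the highest ratio.

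Replicates of the same group moved in step as well. Deviations of the 22 replicated libraries from their group means gave r = 0.965 and rho = 0.970 between the genes (permutation p = 4e-05 and 0.00016, adjusted over 9 relations 0.00012 and 0.00048), and r = 0.954 without the 2 farthest libraries. The 8 am and 3 am libraries form a cluster of their own; over the other 19 libraries r was 0.975 and rho 0.970 (permutation p = 1e-05, the smallest that 100000 permutations can give, adjusted 5e-05), and r was 0.965 without the 2 farthest. Each library's own scaling is common to both genes and enters these values. No relation of the invertases to SWEET9 passed within groups. There r was 0.0850 for CWINV2 and 0.241 for CWINV4, and rho 0.170 and 0.174 (permutation p = 0.740 and 0.530 for r and 0.570 for each rho, adjusted 0.670 to 0.740). Without the 2 farthest libraries these r were 0.250 and 0.403. Over the 19 libraries other than 8 am and 3 am, r with SWEET9 was -0.290 for CWINV2 and -0.165 for CWINV4 (permutation p = 0.23 and 0.49, adjusted 0.51 and 0.67). Without the 2 farthest these were -0.546 and -0.319. Such values do not show that a relation is absent.

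Among all 12263 other genes tested, CWINV4 was the gene most like CWINV2 over the 24 libraries, and CWINV2 the most like CWINV4 (Pearson r = 0.994 on the log2 scale, given as a measure of likeness). The median gene had r = 0.00368 with CWINV2 and -0.00769 with CWINV4. For CWINV2 the next were AT5G06700, a trichome birefringence-like protein (0.928), AT5G52870, a membrane-associated kinase regulator (0.926), AT5G57620, myb domain protein 36 (0.917), AT1G10650, an S-ribonuclease binding protein family member (0.916), AT3G16370, a GDSL-like lipase (0.911), and AT2G34190, a xanthine/uracil permease (0.908). For CWINV4 they were AT5G52870 (0.941), AT1G35720, annexin 1 (0.929), AT2G34190 (0.927), AT5G57620 (0.925), AT5G06700 (0.924) and AT1G10650 (0.923). Among the replicated groups all 7 of these genes had their highest mean at 8 am. They were picked by likeness to the invertases in these same libraries, so a shared peak follows largely from the choice. MYB36, known in Arabidopsis roots for switching on the endodermal barrier, averaged 1905 at noon, 3696 at 3 am and 6812 at 8 am. SWEET9 stood far down both lists, at ranks 5039 for CWINV2 (r = 0.113) and 4436 for CWINV4 (r = 0.168). These r take in times and ant treatments together. SWEET9 averaged 174589 at 8 am, 84472.5 at 3 am, 55009 at 9 am, 9709 at 3 pm and 2450 at noon. It averaged 242141 without ants, where both invertases were low.

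The invertase family did not move as one. The table holds 3 of 6 Arabidopsis cell wall invertase loci. The remaining one, CWINV3 (AT1G55120, a fructan exohydrolase in Arabidopsis rather than an invertase), went the other way without ants and at noon. It had 21291 to 23190 normalised counts without ants, against 11964 to 14843 in the 8 am controls, and rose by 0.73 ± 0.19 on the log2 scale (SE, limma adjusted p = 0.00898). CWINV3 was also higher at noon than at 8 am (0.50, limma adjusted p = 0.0478), and with Gracilis replacement and gut contents its log2 fold changes of 0.49 and 0.48 did not pass (limma adjusted p = 0.0616 and 0.115). Over the 5 times CWINV3 did not pass in the F test (limma adjusted p = 0.0538). Against 8 am it gave 0.24 at 9 am, 0.16 at 3 am and -0.20 at 3 pm (limma adjusted p = 0.408, 0.861 and 0.432). Of these, the 3 pm value had the direction of CWINV2 and CWINV4. The vacuolar invertase VI2 (AT1G12240), which splits sucrose inside the vacuole, changed in the same direction as CWINV2 and CWINV4. VI2 averaged 216 at noon, 1374 at 3 am and 1300 at 8 am, with log2 fold changes of -2.36 at noon and -2.07 at 3 pm against 8 am (limma adjusted p = 0.0226 and 0.0425) and 2.27 at 3 am against 3 pm (limma adjusted p = 0.0698). Without ants VI2 fell by 2.57 on the log2 scale (limma adjusted p = 0.0201), although its libraries (95 to 523) overlapped the controls (449 to 1922). In the added comparison with 9 am, VI2 gave -0.88 and CWINV3 0.49 without ants. Neither passed (limma adjusted p = 0.412 and 0.0634).

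Of the protein inhibitors of these enzymes, C/VIF1 (AT1G47960), which in Arabidopsis acts on vacuolar invertase, did not pass in the F test (limma adjusted p = 0.765). C/VIF2 (AT5G64620), which inhibits both cell wall and vacuolar forms, had 78 to 97 normalised counts without ants, 100 to 163 with Gracilis replacement and 61 to 131 with gut contents, against 248 to 745 in the controls. It was lower in all 3 treatments, by log2 fold changes of -2.03, -1.53 and -2.04 (limma adjusted p = 0.00696, 0.0292 and 0.0162). With 9 am as the reference its changes were -1.70, -1.20 and -1.71 in the same order (limma adjusted p = 0.0197, 0.0842 and 0.0385). Across the times C/VIF2 did not pass (F test, limma adjusted p = 0.214).

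The alkaline/neutral invertases, which work in the cytosol, plastids and mitochondria, changed in both directions. The F test over the times called 2 of the 5 in the table, a share near the 39.7% of all genes. A/N-InvA fell to 415 to 491 at noon, against 813 to 1047 at 8 am (log2 fold change -0.94, limma adjusted p = 0.000795). A/N-InvB had 9 to 53 normalised counts in the other replicated groups, against 0 to 4 at 8 am, and was higher at noon (limma adjusted p = 0.000634) and without ants (limma adjusted p = 0.00354). CINV1 was lower at noon than at 8 am (-0.70, limma adjusted p = 0.0486). A/N-InvE was lower without ants than at 8 am (-0.52, limma adjusted p = 0.0451). Set against 9 am, A/N-InvB and A/N-InvE gave -0.55 and -0.12 without ants (limma adjusted p = 0.538 and 0.651). A/N-InvC did not pass in the F test (limma adjusted p = 0.118).

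**Figure D5:**
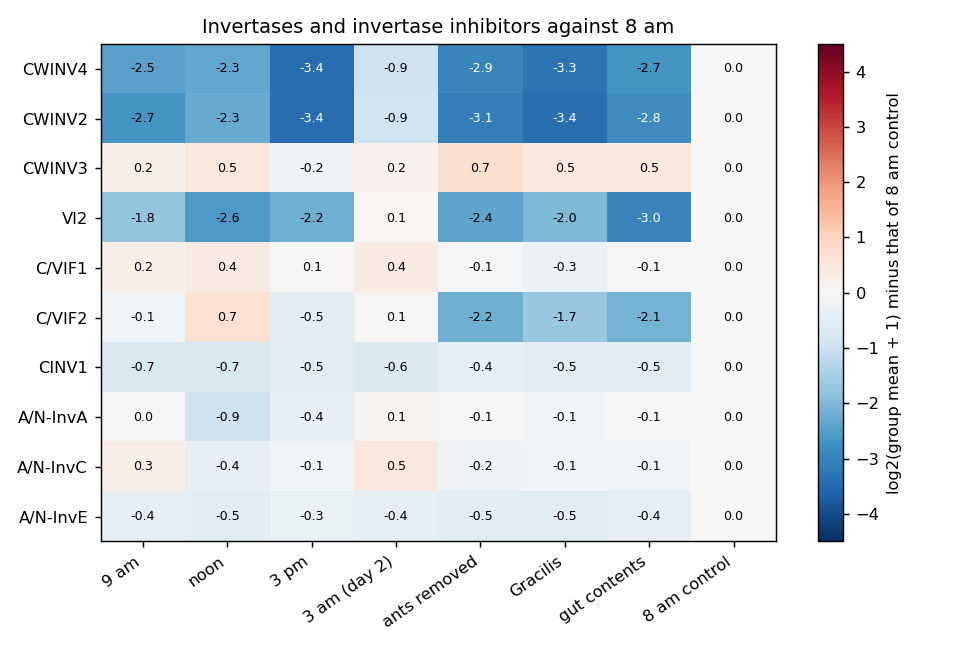
Heat map of log2(group mean + 1) minus that of the 8 am controls for invertases and invertase inhibitors, 1 line per gene and 1 column per group; A/N-InvB, at 0 to 4 at 8 am and 9 to 53 in the other replicated groups, is not drawn. The 8 am column is 0 for every gene. CWINV4 and CWINV2 are lower in every other column, least so at 3 am (-0.94 and -0.89), where neither passed. VI2 is lower in all others but 3 am, although at 9 am it did not pass. C/VIF2 is low in the ant treatments, and CWINV3 is slightly raised there.

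Around the invertases, the genes that make, move and phosphorylate their substrate and products changed in mixed directions. Among the 8 SWEET transporters in the table, 3 were higher at 3 am than at 3 pm and none lower (median log2 fold change 0.22, against -0.01 for all genes, of which 19.6% were called): SWEET9 (3.30, limma adjusted p = 0.0111), SWEET3 (1.77, 0.0173) and SWEET2 (1.26, 0.0409). Against 8 am, 3 of the 8 were lower at noon and 1 higher (median -0.30, against 0.09 for all genes, of which 37.4% were called), with SWEET9 at -6.12, SWEET3 at -3.16 and SWEET2 at -2.71 on the log2 scale (limma adjusted p = 1.21e-05, 3.89e-05 and 4.34e-05) and SWEET15, named after its value was seen, at 1.57 (limma adjusted p = 0.0197). Without ants 2 of the 8 were lower (median -0.10, against -0.05 for all genes), near the 27.5% of all genes called there: SWEET3 at -1.40 (limma adjusted p = 0.0213) and, again named after its value was seen, the phloem-loading carrier SWEET11 at -2.70 (limma adjusted p = 0.00488), while SWEET2 gave 0.09 (limma adjusted p = 0.875). Set against 9 am, SWEET11 gave -1.96, SWEET2 1.31 and SWEET3 0.92 without ants (limma adjusted p = 0.0297, 0.0153 and 0.114). SWEET2 and SWEET3 are less studied in nectaries. In Arabidopsis SWEET2 is a vacuolar sugar carrier.

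Hexoses released in the wall are taken up by STP transporters, and 5 of the 7 STP genes in the table were tested. At 3 am 2 of the 5 were lower than at 3 pm and none higher (median -0.97; 19.6% of all genes were called): STP5 at -2.36 and STP1, a high-affinity hexose-proton symporter, at -1.36 on the log2 scale (limma adjusted p = 0.00508 and 0.0463). At noon STP5 and STP1 were higher than at 8 am (2.44 and 1.09, limma adjusted p = 0.000370 and 0.0462), opposite in direction to CWINV2 and CWINV4, and STP13 was lower (-1.50, limma adjusted p = 5.48e-05), for a median of 0.63 over the list, where 37.4% of all genes were called. Without ants 1 of the 5 was higher than at 8 am and none lower (median 0.48, with 27.5% of all genes called). It was STP14 at 2.04 (limma adjusted p = 0.0309), named after its value was seen. With 9 am as the reference STP14 gave 2.30 (limma adjusted p = 0.0179).

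Of 5 hexokinases and fructokinases, which phosphorylate the hexoses once inside, 3 were lower without ants and none higher (median -0.95), where 27.5% of all genes were called and 15.9% were lower. HXK2 had 1271 to 1422 without ants, against 2211 to 3043 in the controls (log2 fold change -0.95, limma adjusted p = 0.00116), and FRK1 had 1137 to 1410, against 2796 to 7914 (-1.76, limma adjusted p = 0.00202). The last, FRK3, named after its value was seen, gave -1.09 (limma adjusted p = 0.0146). HXK2 was also lower at noon than at 8 am (-1.45, limma adjusted p = 1.95e-05), as the only one of the 5 (median -0.42, with 37.4% of all genes called). FRK1 was the only one higher at 3 am than at 3 pm (1.35, limma adjusted p = 0.0286, median 0.39, with 19.6% of all genes called). Set against 9 am, FRK1 and FRK3 were still lower without ants (-1.03 and -1.12, limma adjusted p = 0.0434 and 0.0136). HXK2 turned sign there and did not pass (0.38, limma adjusted p = 0.122).

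Sucrose synthases are the other enzymes that cleave sucrose, and all 3 of those in the table passed the F test over the times, as did 39.7% of all genes. SUS3 had 107880 to 137181 normalised counts without ants, against 57593 to 70216 in the controls (log2 fold change 1.02, limma adjusted p = 0.00766), and SUS6, a form of the phloem in Arabidopsis, had 25 to 42, against 365 to 1290 (-4.45, limma adjusted p = 0.000119). SUS1 gave 0.09 without ants (limma adjusted p = 0.837) but was lower at noon than at 8 am (-1.27, limma adjusted p = 0.00226), as was SUS3 (-1.25, limma adjusted p = 0.00130). No sucrose synthase, sucrose-phosphate synthase or phosphatase, and no SUC sucrose transporter, passed between 3 am and 3 pm (medians 0.36, 0.02 and 0.23). Of all genes 19.6% were called there, 37.4% at noon against 8 am and 27.5% without ants. Of the sucrose-making enzymes, SPS1F was lower at noon (-0.65, limma adjusted p = 0.0198) and higher without ants (0.69, limma adjusted p = 0.0195), and SPS3F was lower at noon (-1.60, limma adjusted p = 0.00141). The vacuolar sucrose exporter SUC4 was lower at noon (-1.27, limma adjusted p = 0.000141) and gave 0.29 without ants (limma adjusted p = 0.291). Without ants SPS4F and the phloem sucrose loader SUC2, named after their values were seen, were lower (-2.01 and -1.13, limma adjusted p = 0.00431 and 0.0281). SUC3 passed the F test over the times (limma adjusted p = 0.0357). Set against 9 am, SUS3, SPS1F, SUS6 and SPS4F gave 1.78, 0.72, -3.67 and -1.47 without ants (limma adjusted p = 0.000258, 0.0168, 0.000707 and 0.0268). SUS1 and SUC4 were higher there (1.70 and 1.24, limma adjusted p = 0.000723 and 0.000527). SUC2 did not pass (-0.37, limma adjusted p = 0.475).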

How the data were processed

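The authors deposited 1 table of normalised counts, whole numbers that are used here as a score, since no unit is stated; per the file headers each gene carries an Arabidopsis locus and a description. The aligner, assembly, annotation and way of scaling (not given in the sources used here) could not be checked, so sequencing depth and gene lengths are unknown. No genome was used, and no sequence or position is given. The values are not raw counts and were tested on log2(value + 1), which understates changes of low genes, with limma 3.58.1 (mean-variance trend, R 4.3.3). All 24 libraries entered 1 model with 10 group coefficients (14 residual and 3.657 prior degrees of freedom), so the groups share an estimate of the spread; genes with a mean under 10 were left out (386). Tests were 2-sided and adjusted by Benjamini and Hochberg. The estimate is an average over noisy 9 am and 3 pm replicates and tighter other ones. Ratios were tested by exact permutation over libraries and correlations with 100000 permutations (Python 3.11.15, scipy 1.17.1). The fit was tested on simulated data.

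The members, the comparisons and the 10 lists (81 loci, 42 in the table) were chosen with earlier results of these data known. Named are the 2 members, all invertases and inhibitors in the table, up to 3 genes per other list with the smallest F test p past the threshold, SWEET9, LHY, and the 6 genes most like each member; a few further genes that stand behind a small count were named after their values were seen. Equal sample numbers were checked for pairing by correlated deviations from the group means: every pair exceeded 0.1 only for 9 am against 8 am (0.161 to 0.416) and Gracilis replacement against ant removal (0.220 to 0.514). No label says what a shared number would mean.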

Additional observations from a re-analysis of the deposited data

How the results depend on the processing

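Of 477 recomputed values, 444 stayed the same, 23 lost a call, 5 gained one and 5 turned sign. For log2 fold changes the same means direction and side of the threshold, and for F tests and ratio tests the side alone. Recomputed correlations carry no p-value, so for them it means a small shift of r. The pseudocount of 10, no filter on low values and median-of-ratios scaling changed no call of either gene. For 3 am against noon, quantile normalisation lost CWINV4 (0.94, adjusted p 0.127), averaging the near-identical pairs lost both genes (1.39 and 1.42), and leaving out single libraries gave 1.24 to 1.52 for CWINV2 and 1.24 to 1.54 for CWINV4. Fits of the compared groups alone lost 3 am against 3 pm (2.74 and 2.61) and CWINV4 for 9 am against 8 am (-2.56). With 9 am in place of 8 am the treatments gave -0.40, -0.37, -0.68, -0.76, -0.26 and -0.29. A replicate block was added only to fits of the compared groups alone. Against the same fits without it, the block made CWINV2 pass for 3 am against 9 am (2.07, adjusted p 0.0446), both genes for 3 am against 3 pm (2.45 and 2.40, adjusted p 0.0308 and 0.0367) and CWINV4 for 9 am against 8 am, where the numbers go together (adjusted p 0.0259; 474 genes called with the block and 14 without). It changed no other call of these genes. Leaving out single libraries gave 1.59 to 2.07 and 1.32 to 2.02 for 3 am against 9 am, and -1.87 to -1.07 and -1.66 to -1.01 for 3 pm against noon. It gave -0.071 (without 9 am sample 1) to 0.63 for CWINV4 at noon against 9 am and -0.59 to 0.86 and -0.67 to 0.83 for gut contents against ant removal. It gave 0.254 to 0.539 for the share of variance of the ratio over the times and 0.692 to 0.847 for the share of variance of the ratio over the ant treatments. The causes were not tested. Counts of called genes moved by over 1.5 times: the F test called 4865 (2985 to 5504 over the alternatives; 2678 without 8 am). They were 1516 for noon against 9 am (95 to 2595), 0 for 3 pm against 9 am (0 to 802), 0 for 3 am against 9 am (0 to 869) and 0 for 3 pm against noon (0 to 1369). For 3 am they were 2493 against noon (676 to 6058) and 2400 against 3 pm (3 to 3226), and for gut contents against ant removal 8 (0 to 9). Against 8 am the counts were 1743 for 9 am (14 to 2934), 4585 for noon (3198 to 6994), 4516 for 3 pm (1640 to 5002), 102 for 3 am (2 to 354), 3368 without ants (1816 to 4701), 3729 with Gracilis replacement (2326 to 5034) and 2702 with gut contents (920 to 3056). Median-of-ratios scaling moved the median gene from 0.21 to 0.01 for noon against 9 am and from -0.14 to 0.00 for 9 am against 8 am, and the share of higher calls from 67.4% to 33.1% and from 23.3% to 49.9%. It also moved the median gene from 0.14 to -0.0085 for 3 pm and from 0.13 to 0.02 for 3 am, both against 9 am. Quantile normalisation moved it from -0.05 to 0.09 without ants, -0.03 to 0.09 with Gracilis replacement and -0.01 to 0.11 with gut contents, and the share of higher calls there from 42.2% to 56.4%, 45.2% to 56.8% and 41.4% to 55.5%. For 3 am against 3 pm the share moved from 52.7% to 40.3%. P-values measure only the spread between these pooled samples. Library depth is unknown, so no counting error was computed.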
